A study of Mus musculus with 2 samples.

Results

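Fibroblasts and other mesenchymal cells are commonly recognised by proteins on their surface, and 10 genes that encode such proteins were followed here in cultured mouse embryonic fibroblasts: Thy1, Cd34, Pdgfra, Pdgfrb, Ly6a, Eng, Nt5e, Cd44, Vcam1 and Ddr2. They were listed by name for what their proteins are known for, but with earlier results of these data known. All 10 are among the 24015 genes of the expression table. The cells came as 1 sample labelled Adar2-WT, of genotype Adar2+/+, and 1 labelled Adar2-KO, of genotype Adar2-/-, both grown in DMEM with serum and antibiotics. The labels name neither the deleted part of Adar2 nor the number of embryos, the passage or whether the cells were immortalised. Poly(A)+ RNA of each sample gave 1 library, and the expression values rest on 9446911 (WT-labelled) and 9546997 (KO-labelled) reads. With 1 library per genotype there is no spread between cultures to judge a difference by, and every interval given here is a 95% interval that covers counting error only. The targeted gene, listed as Adarb1, had 18.4 RPKM (reads scaled to gene length and to the total of the library; 1155 reads) in the WT-labelled sample and 25.8 RPKM (1633 reads) in the KO-labelled sample. It was thus not lower in the library labelled knockout, a value over the whole gene does not check the loss of a part of it, and all directions below rest on the labels.

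Most of these proteins are used in flow cytometry to tell mesenchymal cells from blood, endothelial and epithelial cells. No single one is specific to fibroblasts: stem cells of the blood and endothelium also carry CD34, many T cells carry THY1, and endothelium carries endoglin and, when inflamed, VCAM1. THY1, LY6A and the ectoenzyme encoded by Nt5e are held in the membrane by a glycolipid (GPI) anchor, the PDGF receptors and DDR2 are receptor tyrosine kinases, and endoglin, CD44, CD34 and VCAM1 cross the membrane once without a kinase of their own. Levels of several of them, Thy1 and Cd34 above all, are known to differ between fibroblast subsets and with growth in culture. In RNA from a whole culture, fewer cells with a marker and less RNA in each cell cannot be told apart.

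The promoter sequences of Cd34, Nt5e and Pdgfra are shown because, of the 6 members with an entry in the RefSeq promoter table (Cd34, Pdgfra, Eng, Nt5e, Cd44 and Ddr2), Cd34 and Nt5e differed most upward and Pdgfra most downward on the scale of RPKM + 1. Each runs 5′ to 3′ from 250 bases before to 50 bases after an annotated start (build GRCm38.p6, whereas the expression and editing files use mm9), and capitals mark GC boxes (GGGCGG on either strand, overlapping matches merged).
Cd34, chr1:194938571-194938870, plus strand: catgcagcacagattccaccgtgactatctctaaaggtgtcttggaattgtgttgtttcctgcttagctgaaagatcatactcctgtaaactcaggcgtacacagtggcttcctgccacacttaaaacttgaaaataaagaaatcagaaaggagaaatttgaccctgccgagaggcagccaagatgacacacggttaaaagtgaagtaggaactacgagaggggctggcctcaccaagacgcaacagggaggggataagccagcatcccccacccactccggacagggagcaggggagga
Nt5e, chr9:88327359-88327658, plus strand: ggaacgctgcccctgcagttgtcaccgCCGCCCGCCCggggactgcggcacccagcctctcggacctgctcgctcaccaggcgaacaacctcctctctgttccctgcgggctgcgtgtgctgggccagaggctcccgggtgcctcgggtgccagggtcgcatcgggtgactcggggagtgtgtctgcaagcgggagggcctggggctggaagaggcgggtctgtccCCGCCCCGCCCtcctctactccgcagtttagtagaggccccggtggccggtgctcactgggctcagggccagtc
Pdgfra, chr5:75152001-75152300, plus strand: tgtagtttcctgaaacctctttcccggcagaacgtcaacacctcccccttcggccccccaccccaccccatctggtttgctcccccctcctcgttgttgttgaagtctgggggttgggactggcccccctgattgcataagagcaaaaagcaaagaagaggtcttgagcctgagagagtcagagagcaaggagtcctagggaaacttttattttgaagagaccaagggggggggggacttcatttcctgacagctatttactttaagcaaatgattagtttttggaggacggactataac

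The Nt5e window held 4 GC boxes in 2 overlapping pairs and 71.0% G and C, and the windows of Cd34 and Pdgfra held no GC box, with fewer G and C (51.0% for Pdgfra). A GC box was found in 35.7% of the 32851 promoter windows of the same length. Neither a TATA box (TATAAA, 13.6% of windows) nor a CCAAT box (CCAAT, 37.4%), searched on both strands, was found in any of the 3 windows printed. Cd44 had 1 GC box and Ddr2 1 TATA box, and Eng had none of the 3 motifs. Matches and their absence describe these letters only. The deposited files hold no measurement on the promoters themselves.

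Thy1 separated the 2 libraries more than any other member, and Cd34 came next. On the scale of log2((KO + 1)/(WT + 1)) of the RPKM values, 1 of the 10 members (Thy1) was at least 2-fold higher in the KO-labelled sample, and 0 were lower by that much. Of all 13867 genes that reached 1 RPKM in either sample (the compared genes), 4.42% passed 2-fold upward and 7.46% downward. The other 9 members lay within 2-fold, as did 12219 of the 13867 genes. The members' median log2 ratio was 0.19, beside 0.0053 over all compared genes. Counting intervals of the reads ratio lay wholly above 0 for 6 members and wholly below 0 for 3, against 27.7% and 27.1% of 13604 compared genes with recovered reads. At these depths such an interval is narrow, and it says nothing of the spread between cultures.

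**Figure D1:**
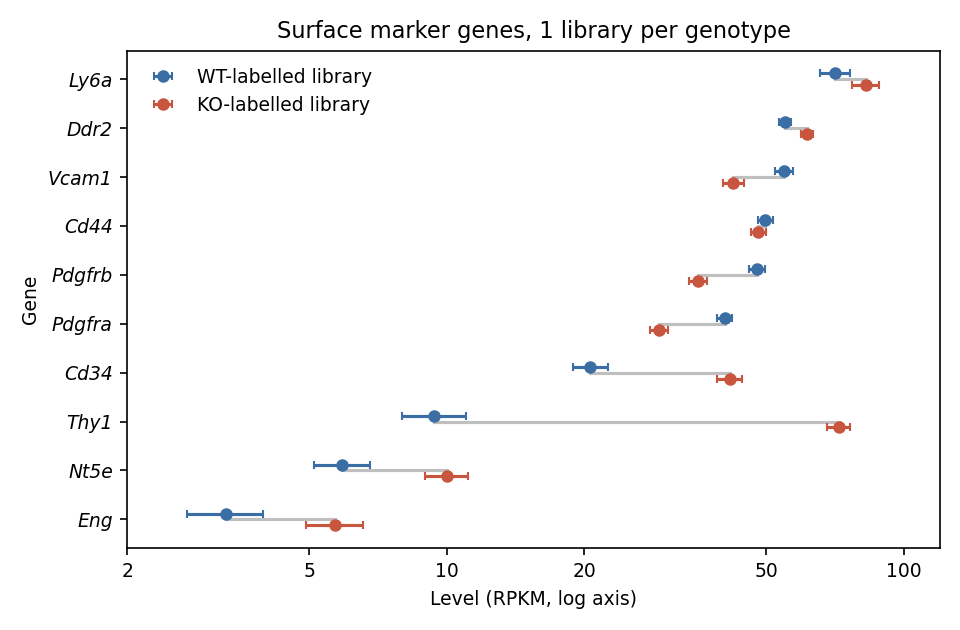
Level of the 10 surface marker genes in RPKM (log axis) in the WT-labelled sample (blue) and the KO-labelled sample (red), 1 library each, with exact Poisson 95% intervals that cover counting error only; grey lines join the 2 values of a gene. Thy1 lies at 9.40 and 72.1 RPKM, the widest gap, and Cd44 at 49.8 and 48.1 RPKM.

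THY1 (CD90) is a small immunoglobulin-like protein that binds integrins and syndecan on neighbouring cells, and it is the marker most often used to sort fibroblasts. Thy1 had 9.40 RPKM (154 reads) in WT-labelled cells and 72.1 RPKM (1195 reads) in KO-labelled cells. The KO-labelled level was 7.68 times the other (interval 6.49 to 9.14), and the authors' deposited table gives a GFOLD value, a log2 fold change shrunken toward 0 where reads are few, of 2.71. Among genes above 0, ordered from the highest level, Thy1 stood at place 10040 of 17270 in WT-labelled cells and at place 185 of 16499 in the KO-labelled sample. Among 10375 genes that reached 10 RPKM in either sample, 50 had a larger log2 ratio.

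CD34 is a sialomucin of blood stem cells, endothelium and many tissue fibroblasts, and its level is known to fall when stromal cells of fat are grown in culture. Cd34 had 20.6 RPKM (511 reads) in WT-labelled cells and 41.6 RPKM (1041 reads) in KO-labelled cells. Its plain ratio was 2.02 (interval 1.81 to 2.25), but on the RPKM + 1 scale its log2 ratio was 0.98, just under the 2-fold line. Whether Cd34 counts as 2-fold therefore depends on the scale, and the interval holds values on both sides.

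LY6A (SCA-1), a GPI-anchored protein of the Ly6 family, marks mesenchymal progenitors and is inducible by interferon. Ly6a was the highest member in both libraries, with 70.9 RPKM (671 reads) in the WT-labelled sample and 82.6 RPKM (790 reads) in the KO-labelled sample, a ratio of 1.17 (interval 1.05 to 1.29). Its direction was opposite to that of 15 interferon-stimulated genes, all of which were lower there by 2-fold or more (median log2 ratio -3.52), among them Ifi44 (42.5 and 0.252 RPKM), Oasl2 (33.7 and 0.301 RPKM) and Ifit2 (27.0 and 10.0 RPKM). No conclusion on how Ly6a is controlled follows from values set side by side. Ly6a stood at place 59 of 16499 in the KO-labelled sample, so its level lies near the top of the range that these values reach.

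Most relatives of Ly6a lay within 2-fold too. The family list, which includes the urokinase receptor, had 13 compared genes, with 1 higher and 2 lower by 2-fold or more in the KO-labelled sample (median log2 ratio -0.05). Ly6c1, a marker of endothelium, had 36.7 and 38.6 RPKM, and Ly6e, a broadly expressed interferon-inducible member, had 32.5 and 30.6 RPKM. Among family genes that reached 5 RPKM in a sample, the highest ratios were those of Ly6i (8.32 and 11.8 RPKM) and Ly6c2 (13.3 and 17.9 RPKM), and the lowest those of Lynx1 (32.7 and 21.8 RPKM) and Slurp1, with 33 reads in the WT-labelled sample and 0 in the KO-labelled sample. Against the 3 reads that a count of 0 allows, and with the counting error of the 33 reads left out, Slurp1 was at least 11.1-fold lower; the lower end of its 95% interval is 8.54-fold. Psca (1 and 12 reads) and Lypd6 (91 and 5 reads) were the others past 2-fold. Since Ly6 genes have near-identical stretches and the counting rule is not given in the sources used here, the split of reads between Ly6a, Ly6c1, Ly6c2 and Ly6i is uncertain.

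NT5E (CD73) and endoglin (CD105) belong, with THY1, to the proteins whose presence is part of the definition of human mesenchymal stromal cells. The cells here are from mouse. Nt5e had 5.91 RPKM (200 reads) in WT-labelled cells and 10.0 RPKM (342 reads) in KO-labelled cells, a ratio of 1.69 (interval 1.42 to 2.02). Eng was the lowest member in both, with 3.29 RPKM (111 reads) and 5.69 RPKM (194 reads), a ratio of 1.73 (interval 1.36 to 2.20). Both were thus higher in the KO-labelled sample beyond counting error, at levels under those of the median compared gene (19.6 and 19.8 RPKM). The genes of these 3 proteins were all higher in KO-labelled cells, Thy1 alone by more than 2-fold.

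PDGFRA and PDGFRB are the receptors through which platelet-derived growth factors drive the growth and migration of mesenchymal cells, and both were lower in the KO-labelled sample by about the same factor. Pdgfra had 40.6 RPKM (2583 reads) in WT-labelled cells and 29.2 RPKM (1879 reads) in KO-labelled cells, a ratio of 0.72 (interval 0.68 to 0.76). Pdgfrb had 47.7 RPKM (2439 reads) and 35.4 RPKM (1831 reads), a ratio of 0.74 (interval 0.70 to 0.79). Within a library, Pdgfrb stood above Pdgfra by 1.18 times in the WT-labelled and 1.21 times in the KO-labelled sample. The balance of the 2 receptors was therefore similar while the level of both was lower.

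CD44 binds hyaluronan, VCAM1 binds integrins of leukocytes, and DDR2 is a kinase switched on by fibrillar collagen. Cd44 had 49.8 RPKM (2660 reads) in WT-labelled cells and 48.1 RPKM (2594 reads) in KO-labelled cells, a log2 ratio of reads of -0.05 (interval -0.13 to 0.03). It was the 1 member whose interval held 0, and its sign depended on scaling: the authors' deposited table gives a log2 fold change of 0.00085 and a GFOLD value of 0. A value over the whole gene does not tell Cd44 splice forms apart. Vcam1 had 54.7 RPKM (1757 reads) and 42.4 RPKM (1376 reads), a ratio of 0.77 (interval 0.72 to 0.83). Ddr2, with the most reads of any member, had 55.0 RPKM (4305 reads) and 61.5 RPKM (4866 reads), a ratio of 1.12 (interval 1.07 to 1.17).

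**Figure D2:**
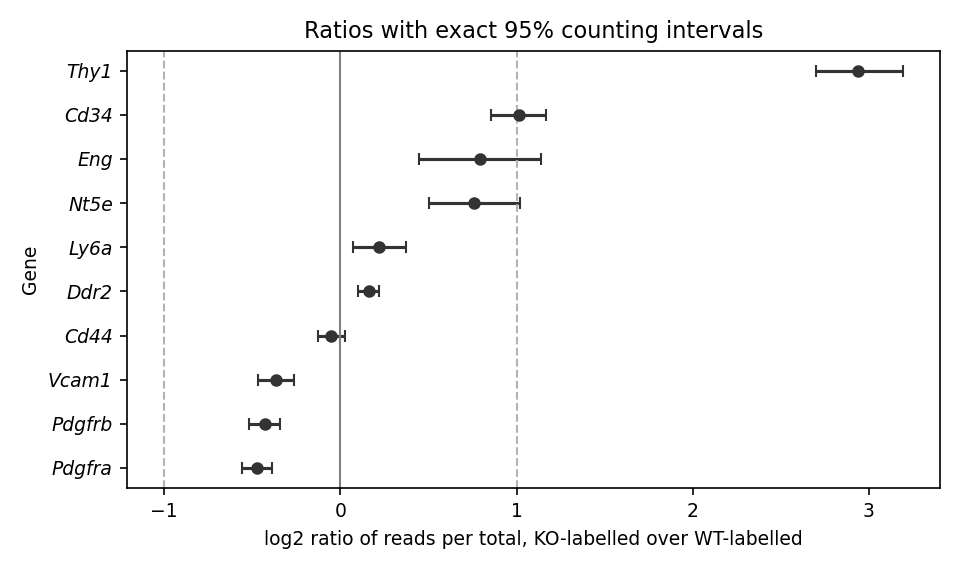
log2 ratio of reads per total (KO-labelled over WT-labelled sample) of the 10 genes with exact 95% intervals, conditional on the sum of both read numbers; dashed lines mark 2-fold. Thy1 stands apart, the Cd34 interval spans the 2-fold line, and the Cd44 interval spans 0.

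The order of the members differed between the libraries mainly through Thy1 and Cd34. In the WT-labelled sample the order ran from Ly6a through Ddr2, Vcam1, Cd44, Pdgfrb, Pdgfra, Cd34, Thy1 and Nt5e to Eng. Counting intervals overlapped between Ddr2 and Vcam1 and between Cd44 and Pdgfrb. In the KO-labelled sample Thy1 stood at place 2 in place of 8, behind Ly6a, followed by Ddr2, Cd44, Vcam1, Cd34, Pdgfrb, Pdgfra, Nt5e and Eng, and only Vcam1 and Cd34 overlapped among neighbours. Ly6a exceeded Thy1 by 7.54 times in the WT-labelled sample and by 1.14 times in the KO-labelled sample. Thy1 stood below Cd34 in the first (ratio 0.46) and above it in the second (ratio 1.73).

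Some members lie near the upper end of the values. The highest value of any gene was 1.01 reads per base of its length in the WT-labelled sample and 1.19 in the KO-labelled sample. Ly6a reached 0.67 and 0.79 reads per base, Ddr2 0.52 and 0.59, and Thy1 0.089 and 0.69. Eng, at 0.031 and 0.054, was farthest from that ceiling. Genes of the related lists lie in the same range, among them Fbn1 (0.64 and 0.74) and Col1a1 (0.47 and 0.55). Whether the ceiling narrows ratios of the high members and of such genes, between libraries or within one, was not tested.

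**Figure D3:**
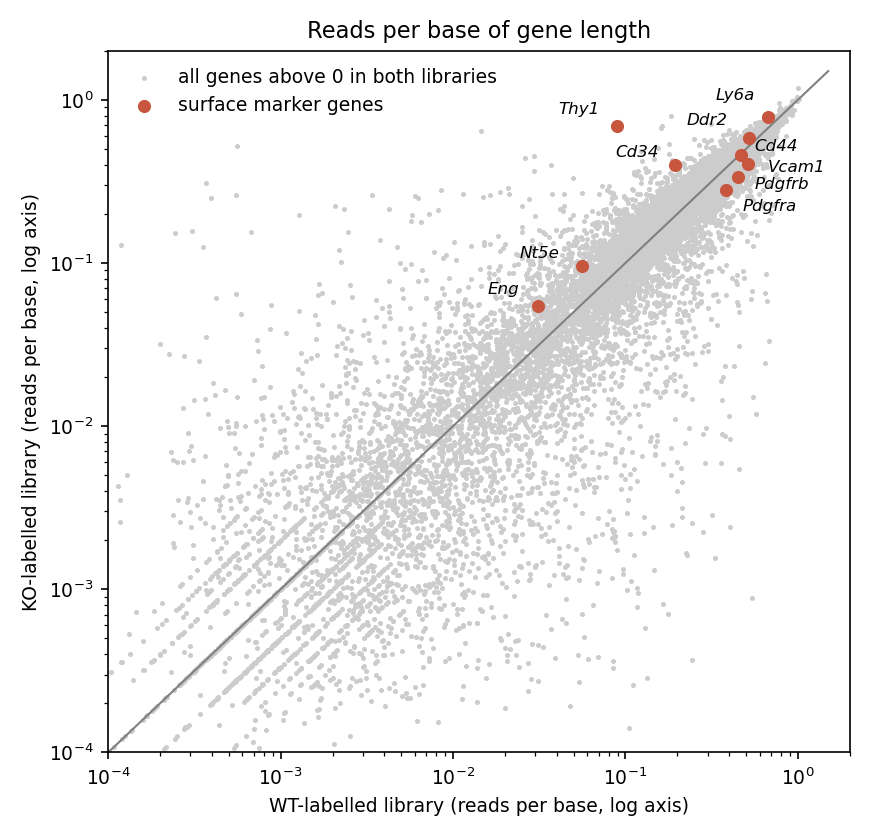
Reads per base of gene length in the WT-labelled (horizontal) and KO-labelled sample (vertical), both on log axes; grey points are all genes above 0 in both libraries, red points the 10 members, and the line marks equal values. Thy1 lies farthest above the line of the 10 members, and Ly6a lies near the upper end in both libraries.

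The 15 related lists hold 216 genes other than the members, of which 183 were compared, with 9 higher and 34 lower by 2-fold or more in the KO-labelled sample. These are 4.92% and 18.6% of the 183, beside 4.42% and 7.46% of all compared genes. Without the 15 interferon-stimulated genes, 9 and 19 of 168 remained (5.36% and 11.3%). The lists were chosen with results known, so these shares are a description. The highest and lowest genes of a list are given among those that reached 5 RPKM in a sample. Genes named below with under 5 RPKM in both libraries were chosen after their values were seen, as were Psca and Lypd6, except the partner genes Itga4, Entpd1 and Podxl and the defining markers of other cell types.

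Ligands of the PDGF receptors differed in opposite directions. Of the 4 ligand genes, 1 was higher and 1 lower by 2-fold or more in the KO-labelled sample. Pdgfb, whose product binds both receptors, had 5.90 RPKM (164 reads) and 28.2 RPKM (791 reads), a ratio of 4.77 (interval 4.03 to 5.68). Pdgfd, whose product acts mainly on PDGFRB, had 21.6 RPKM (366 reads) and 5.49 RPKM (94 reads), which is 3.93 times lower (interval 3.13 to 4.99). Pdgfa (28.1 and 34.2 RPKM) and Pdgfc (27.9 and 32.2 RPKM), which feed PDGFRA, were close. Downstream of the receptors, 0 of 14 signalling genes were 2-fold apart (median log2 ratio 0.02), with Shc1 (52.4 and 44.7 RPKM) and Rasa1 (43.9 and 40.3 RPKM) lowest and Plcg1 (11.1 and 13.0 RPKM) and Grb2 (45.3 and 52.1 RPKM) highest.

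The integrin alpha chains that bind VCAM1 were low in both libraries and lower in the KO-labelled one. Itga4, which encodes the alpha chain of the main VCAM1 receptor, had 135 reads (1.45 RPKM) in the WT-labelled sample and 2 reads (0.021 RPKM) in the KO-labelled sample, 68.2 times lower (interval 18.5 to 569). Itga9, a further alpha chain that binds VCAM1, had 201 and 28 reads, 7.25 times lower (interval 4.87 to 11.2). The shared beta chain gene Itgb1 was abundant and close (58.3 and 54.6 RPKM), Itgb7, the other partner of the alpha 4 chain, had 10.3 and 14.7 RPKM, and Adam17, which sheds VCAM1, had 39.2 and 34.1 RPKM. In this list of 9 genes, 6 were compared, with 0 higher and 2 lower by 2-fold or more (median log2 ratio -0.59). The count of 2 was 3 with a pseudocount of 0.1 RPKM, and 0 with a pseudocount or a filter of 5 RPKM. Among NF-kB subunits and targets, a class of which Vcam1 is a known member, 11 of 14 lay within 2-fold (median 0.07). Il6 (23.4 and 9.73 RPKM) and Cxcl10 (33.0 and 11.3 RPKM), which is also induced by interferon, were lower, while Traf1 (2.87 and 7.12 RPKM) was 2-fold higher and Nfkbie had 13.4 and 24.5 RPKM.

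Of the 6 collagen genes listed as DDR2 ligands, 4 were close between the samples, namely Col1a1 (49.98 and 57.1 RPKM), Col1a2 (48.6 and 49.5 RPKM), Col3a1 (40.3 and 36.2 RPKM) and Col5a1 (44.0 and 48.4 RPKM), which encode chains of the fibrillar collagens of connective tissue. The list of collagen receptors, DDR2 ligands and collagenases had 13 compared genes, with 2 higher and 3 lower by 2-fold or more in the KO-labelled sample (median log2 ratio -0.01). The remaining collagen genes went in opposite directions. Col2a1, which encodes the main cartilage collagen, had 48.0 and 0.571 RPKM, and Col10a1, a collagen of hypertrophic cartilage known to bind DDR2, had 3.99 RPKM (118 reads) and 27.8 RPKM (830 reads). Mmp13, a collagenase known as a DDR2 target, was lower (33.0 and 9.36 RPKM), Mmp2, a gelatinase, was higher (18.8 and 55.9 RPKM), and the collagen-binding integrin gene Itga2 had 129 and 34 reads. Ddr1, the related receptor known mainly from epithelium, had 56.9 and 41.9 RPKM, so that Ddr2 stood at 0.97 times Ddr1 in the WT-labelled sample and at 1.47 times in the KO-labelled sample.

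Hyaluronan synthesis differed in 1 gene beside an even Cd44. Has2, the main hyaluronan synthase of fibroblasts, had 24.7 RPKM (992 reads) in WT-labelled cells and 10.96 RPKM (444 reads) in KO-labelled cells, 2.26 times lower (interval 2.02 to 2.53). It was the 1 gene of 12 compared in the list of hyaluronan and CD44 partners that was 2-fold lower, and 0 were 2-fold higher (median log2 ratio -0.02). Tnfaip6, which remodels hyaluronan, had 6.94 and 3.86 RPKM, Vcan, a hyaluronan-binding proteoglycan, 44.7 and 57.7 RPKM, and the hyaluronidase gene Hyal1 5.16 and 7.95 RPKM.

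Around NT5E, which turns extracellular AMP into adenosine, 2 of the 11 compared genes were lower in KO-labelled cells by 2-fold or more. Of all compared genes, 7.46% were lower by that much. Entpd1, whose product feeds AMP to NT5E, was nearly absent, with 3 and 2 reads. The count of 2 depended on the scale: it was 5 with a pseudocount of 0.1 RPKM and by recovered reads, 4 by the authors' deposited log2 fold change and 0 with a pseudocount of 5 RPKM. None of the 11 was 2-fold higher (median log2 ratio -0.36), and the 2 past 2-fold were Enpp3 (18.7 and 8.56 RPKM), a nucleotide pyrophosphatase, and Alpl (53 and 11 reads), the tissue-nonspecific alkaline phosphatase. Of the adenosine receptor genes, Adora2b had 7.06 and 3.41 RPKM, Adora1 125 and 47 reads and Adora2a 54 and 15 reads. As to other enzymes, the deaminase gene Ada had 18.2 and 17.9 RPKM and Enpp2, which encodes autotaxin, 25.1 and 31.5 RPKM.

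Endoglin works as a co-receptor for TGF-beta and BMP ligands beside the receptors listed with it. Of 10 compared genes, 1 was 2-fold higher and 1 was 2-fold lower in the KO-labelled sample (median log2 ratio -0.10). Acvrl1, which encodes the type I receptor ALK1 that acts with endoglin in endothelium, had 120 reads (3.35 RPKM) and 35 reads (0.968 RPKM), 3.46 times lower (interval 2.36 to 5.20), whereas Eng was higher. Acvr2b, a type II activin receptor gene, had 4 and 39 reads. Tgfbr2 (35.1 and 42.5 RPKM) and Bmpr2 (28.4 and 29.4 RPKM) were the highest in log2 ratio at the 5 RPKM floor, and the ligand genes Tgfb2 (25.2 and 16.8 RPKM) and Tgfb1 (30.03 and 22.3 RPKM) the lowest.

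The relatives of CD34 had the same direction as Cd34. Podxl, which encodes podocalyxin, had 44 reads (0.874 RPKM) in the WT-labelled sample and 214 reads (4.21 RPKM) in the KO-labelled sample, a ratio of 4.81 (interval 3.47 to 6.82). Podxl2, which encodes endoglycan, had 9.63 RPKM (182 reads) and 18.3 RPKM (350 reads), a ratio of 1.90 (interval 1.59 to 2.29). The selectin genes on the same list, products of activated endothelium and platelets, were lower: Selp had 94 and 5 reads and Sele 59 and 3 reads. Of 4 compared genes, 1 (Podxl) was 2-fold higher and 2 (Selp and Sele) were 2-fold lower.

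Partners of THY1 and the machinery of its membrane anchor differed far less than Thy1. Of 7 compared partner genes, 0 were 2-fold higher and 1 was 2-fold lower in the KO-labelled sample (median log2 ratio -0.16). The integrin gene Itgb3 had 9.14 RPKM (499 reads) and 16.1 RPKM (891 reads), its alpha partner Itgav 43.5 and 38.1 RPKM, and the kinase gene Fyn 26.6 and 30.1 RPKM. Pag1, a raft adaptor that is linked with THY1 signalling, was lower (10.7 and 3.86 RPKM). All 26 compared genes of GPI anchor assembly lay within 2-fold (median -0.03), from Pgap1 (5.94 and 2.98 RPKM) and Pigp (23.4 and 15.0 RPKM) to Pigo (10.97 and 15.1 RPKM) and Pign (23.5 and 34.3 RPKM).

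**Figure D4:**
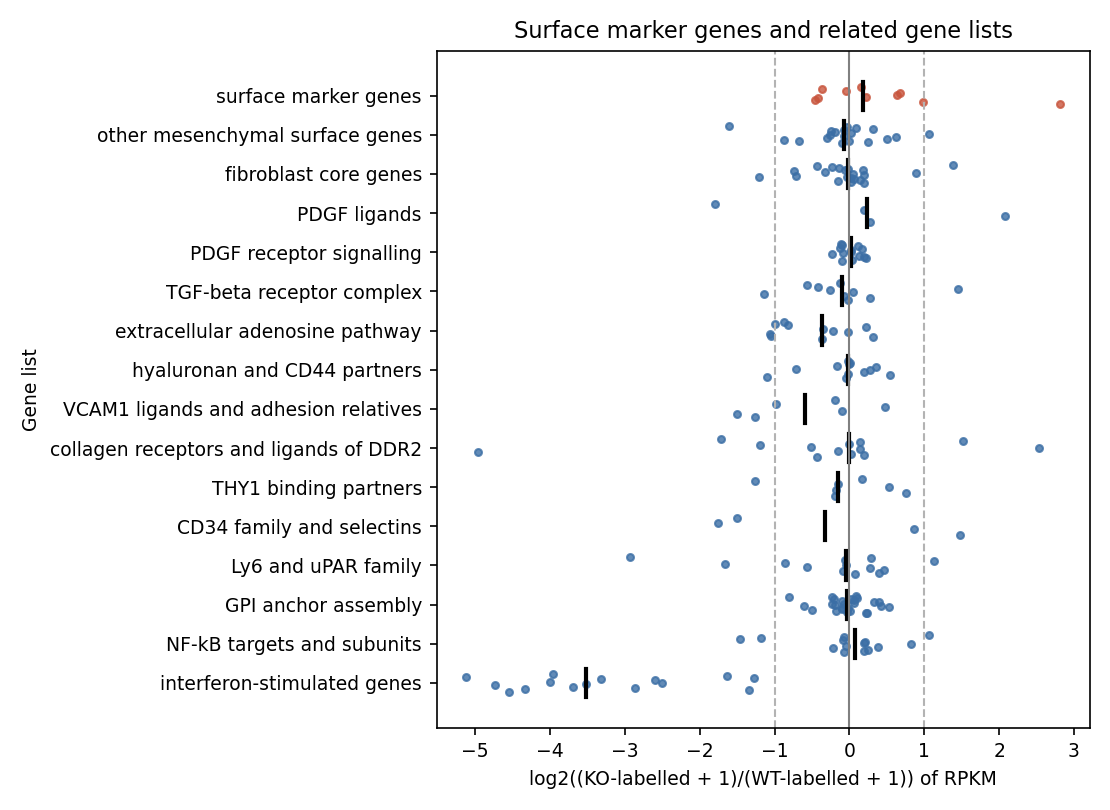
log2 ratio on the RPKM + 1 scale of every compared gene in the 10 surface marker genes (red) and the 15 related lists (blue); black bars are list medians, dashed lines mark 2-fold, and the vertical spread within a row has no meaning. The interferon-stimulated genes lie left of the 2-fold line, and the GPI anchor genes lie within it.

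Other mesenchymal markers were checked against the label of the cells. The 22 fibroblast core genes included 20 with at least 10 RPKM in each library, with 19 of 21 compared genes within 2-fold (median log2 ratio -0.01). Dcn, encoding the proteoglycan decorin, was 2-fold lower (29.7 and 12.3 RPKM), and Pi16, a marker of adventitial fibroblasts, was 2-fold higher (22 and 93 reads). Postn, a matricellular protein gene, had 21.9 and 41.2 RPKM, Fbn1 67.8 and 77.6 RPKM and the transcription factor gene Twist2 53.8 and 31.9 RPKM. Of 26 further surface genes 19 were compared, and 17 lay within 2-fold (median -0.07). Susd2 was 2-fold lower (5.76 and 1.22 RPKM) and Bst1 2-fold higher (18 and 62 reads), the peptidase gene Mme had 24.0 and 12.7 RPKM, the podoplanin gene Pdpn 33.2 and 47.6 RPKM and Lrig1 35.1 and 44.0 RPKM. Fap, a marker of activated fibroblasts, had 21 reads in the WT-labelled sample and 0 in the KO-labelled sample, and Dpp4 had 1 and 0 reads.

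Most markers of blood, endothelial and epithelial cells were under 1 RPKM, while Cd14, Erg and Krt19 each exceeded the median compared gene in the WT-labelled sample. Of the blood markers 3 of 13 reached 1 RPKM in the WT-labelled and 2 in the KO-labelled sample, with a summed level of 27.8 and 32.3 RPKM, mostly Cd14 (19.7 and 23.7 RPKM). Ptprc (CD45) had 4 and 0 reads, and Emr1 and Tyrobp were at 0 in both. Of 12 endothelial markers 3 and 2 reached 1 RPKM (summed 34.4 and 16.3 RPKM), Pecam1 had 15 and 3 reads, Cdh5 had 6 and 1 reads, and Tie1, Emcn, Cldn5 and Robo4 were at 0 in both. Of the 3 endothelial markers compared, Tek (2.39 and 0.134 RPKM) and Erg (23.2 and 7.38 RPKM) were lower in the KO-labelled sample and Flt1 (6.64 and 8.14 RPKM) was higher. Of 12 epithelial markers 2 reached 1 RPKM in each library (summed 62.2 and 21.2 RPKM, mostly Krt19, with 59.4 and 18.8 RPKM), and Epcam had 2 and 0 reads.

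Markers of mesenchymal lineages were more mixed. Their counts stand beside 4.42% of all compared genes that were higher by 2-fold or more and 7.46% that were lower. The 12 pericyte and smooth muscle markers summed to 277 and 284 RPKM, with 1 of 8 compared markers higher (Mylk, 6.72 and 16.4 RPKM) and 1 lower (Rgs5, 8.78 and 1.27 RPKM) by 2-fold or more. Lmod1 had 20.1 and 35.9 RPKM, and Kcnj8 and Abcc9 were at 0 in both. Cartilage and bone markers summed to 101 and 46.0 RPKM, of which Col2a1 made up most of the difference. By 2-fold or more, 4 of their 7 compared markers were lower and 0 were higher. Fat cell markers summed to 69.9 and 51.1 RPKM. Among them, Cebpa had 18.5 and 3.53 RPKM, and Fabp4, the highest marker of that list, had 39.6 and 42.5 RPKM. Of 5 compared fat cell markers, 3 were lower by 2-fold or more and 0 were higher by that much. Skeletal muscle markers summed to 12.5 and 8.81 RPKM and neural markers to 60.3 and 57.7 RPKM, the latter with Sox2 at 24.2 and 0.171 RPKM and Nes at 14.3 and 38.4 RPKM. The part of such cells in the members' values was not tested.

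Some members share exonic bases with a gene on the opposite strand in the GENCODE M21 annotation, and whether counting used strand is not given in the sources used here. Cd34 shares 148 bases with Gm16897 (2.29 and 4.84 RPKM), Ddr2 90 bases with 3110045C21Rik (10.4 and 6.83 RPKM), and Eng 61 bases with Fpgs (32.9 and 37.3 RPKM). Pdgfra and Vcam1 also overlap antisense models, and Pdgfra shares 30 bases on the same strand with Mir7025 (52.9 and 32.6 RPKM). Thy1, Ly6a, Nt5e, Cd44 and Pdgfrb share none.

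None of the 10 genes appears among the edited sites, neither in the 654 sites of the WT-labelled sample nor in the 110 of the KO-labelled sample. The same holds for the genes of the 15 related lists. Absence from these lists does not show that a site is unedited, because the depth at other positions is not given.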

How the data were processed

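Expression was read from a table deposited by the authors with 1 column of RPKM per library and, per the file headers, the log2 fold change, its shrunken form (GFOLD value) and an empirical FDR (a q-value, 1 in every row and not used). STAR 2.4.0d, SAMtools and the build mm9 are named, without roles, in the submitters' processing notes; for annotation, counting rule, strand and duplicates the sources used here state nothing. The deposited editing lists give read counts per site and the editing level as a fraction, per the file headers.

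Log2 ratios are log2((KO + 1)/(WT + 1)) of RPKM, and genes that reached 1 RPKM in either sample were compared; 2-fold is a size, not a test. Whole reads were recovered from the RPKM values and the authors' log2 fold changes: a single pair gave back the printed digits for 96.5% of the 17981 genes above 0 and for all 10 members. The recovery was tested on simulated data. Levels have exact Poisson intervals and ratios Clopper-Pearson intervals conditional on the sum. The 10 genes and the related lists were chosen with earlier results of these data known. Marker lists of other cell types are given by sums and by genes named as defining markers or for their levels or ratios. Named genes are otherwise the members, Adarb1 and fixed partner genes. Of each related list, the genes with the 2 highest and 2 lowest log2 ratios at 5 RPKM in a library are also named. A gene that this rule names is not reported here. Alternatives were other pseudocounts (0.1 and 5 RPKM), filters, centring and the authors' fold changes. Python 3.11.15, SciPy 1.17.1 and pandas 2.3.3 were used.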

Additional observations from a re-analysis of the deposited data

How the results depend on the processing

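The number of members at least 2-fold higher in the KO-labelled sample was 1 as reported and 2, Thy1 and Cd34, with a pseudocount of 0.1 RPKM, by the authors' deposited log2 fold change, and by the ratio of recovered reads, which was added after the data were seen. No setting made a member 2-fold lower, and the members' median log2 ratio ranged from 0.12 (GFOLD value) to 0.24 (authors' deposited log2 fold change). The sign of the single members was kept in 78 of 80 values over 8 settings, and the 2 exceptions were both Cd44. Among genes of the related lists, 9 were 2-fold higher as reported, 3 with a pseudocount of 5 RPKM and 4 with a filter of 5 RPKM, and 34 were 2-fold lower as reported and 20 with a pseudocount of 5 RPKM, a setting that draws the ratios of low genes toward 0. By the width of the ratio's interval, depth limits Eng (111 and 194 reads) most, followed by Nt5e (200 and 342 reads) and Thy1 (154 and 1195 reads). Of 240 counts for the single related lists, 202 lay within 1.5 times of the reported count and 38 did not. Another coverage minimum for edited sites was not run, since no member is listed there. With 1 library per genotype no replicate could be left out.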
